A study of Mus musculus with 6 samples.

Results

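Insulin-like growth factor (IGF) signalling was followed through 10 transcripts in whole hearts of mouse embryos: the ligand gene Igf1, the receptor genes Igf1r and Insr, the adaptor genes Irs1 and Irs2, and the binding protein genes Igfbp2, Igfbp3, Igfbp4, Igfbp5 and Igfbp7. They were taken by gene symbol, and all 10 were found among the 38918 genes of the deposited table. All hearts were from embryonic day 11.5 on a C57/BL6 background. The 3 control libraries came from Tie2 flox/wild-type littermates, and the 3 conditional knockout libraries from Nfatc1Cre:Tie2 flox/flox embryos, in which a Cre recombinase under Nfatc1, a gene of the endocardium, acts on both floxed alleles of Tek, the gene for the receptor Tie2. The control label names no Cre, so Cre and the loss of Tie2 cannot be told apart. Per the labels, RNA came from 18 hearts per genotype and was divided into the 3 replicates. The labels do not say which embryos each replicate holds, so each p-value measures only the spread between these libraries, which may be technical in part. The comparison addresses the response of heart transcripts to loss of Tie2 in cells with a history of Nfatc1 expression, and the series title names sprouting and trabeculation.

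IGF1 and IGF2 are secreted growth factors that bind the receptor tyrosine kinase encoded by Igf1r, and IGF2 also binds a form of the insulin receptor encoded by Insr. The activated receptors phosphorylate the docking proteins IRS1 and IRS2, which recruit PI3 kinase and so switch on Akt and mTOR and keep FoxO transcription factors out of the nucleus. Outside the cell the IGF binding proteins hold the ligands, prolong their life and either withhold them from the receptor or release them after cleavage. In the embryonic heart IGF2, made largely outside the muscle, is known as a mitogen of the ventricular wall.

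Levels are given in FPKM, fragments scaled to the transcript length and the mapped fragments of the library, which allows levels of different genes to be set side by side. Summed over all genes the libraries held 481334.3 to 582260.5 FPKM, and read depth is unknown. Tek stood at 22.4, 25.7 and 16.6 FPKM in the controls and at 3.38, 3.13 and 3.13 FPKM in the conditional knockouts, with no overlap (limma log2 fold change -2.40 ± 0.15 SE, adjusted p = 0.00131). Some libraries stood apart from others of their genotype. Xist lay between 0.0171 and 40.7 FPKM among controls and between 0.0295 and 32.9 FPKM among conditional knockouts, and 4 Y-linked genes summed to 29.6, 31.2 and 65.0 FPKM in controls and to 54.9, 79.0 and 82.1 FPKM in conditional knockouts. Replicates of a genotype thus did not hold RNA of female and male embryos in the same proportions, as aliquots of a single RNA pool would. Among low values, both replicate 1 libraries shared 1.18% to 3.47% of genes at the modal ratio with other libraries, where pairs among replicates 2 and 3 shared 8.5% to 16.4%. The embryonic globin genes Hbb-y and Hba-x are listed at 0 in all 3 controls and at 11128.5 to 23965.2 FPKM in the conditional knockouts, and since FPKM divides by a library total, ratios within a library are given below beside the levels. Summed levels of 5 cardiomyocyte markers (2415 to 4653 FPKM) and 8 endothelial markers (207 to 304 FPKM) were present in all 6 libraries, as the tissue label says.

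The binding protein genes are shown first with their promoters, because they hold the highest levels of the family, Igfbp5 and Igfbp4, and the members that differed most between genotypes, Igfbp4 and Igfbp3. RefSeq promoter entries (GRCm38.p6, 250 bases before to 50 bases after a transcript start) were found for 9 of the 10 members; none was matched for Insr. The 250 bases before the start are printed 5′ to 3′ on the strand of the gene, for Igfbp5 at chr1:72874866-72875115 (minus strand), for Igfbp4 at chr11:99040994-99041243 (plus strand) and for Igfbp3 at chr11:7213924-7214173 (minus strand). Capitals mark the letters TATAAA, the form of the TATA box that was searched.
Igfbp5: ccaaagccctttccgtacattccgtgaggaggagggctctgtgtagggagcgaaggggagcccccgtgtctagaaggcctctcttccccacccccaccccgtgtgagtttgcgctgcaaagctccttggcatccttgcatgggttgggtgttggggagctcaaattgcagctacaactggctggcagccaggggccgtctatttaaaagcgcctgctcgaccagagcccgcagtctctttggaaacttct
Igfbp4: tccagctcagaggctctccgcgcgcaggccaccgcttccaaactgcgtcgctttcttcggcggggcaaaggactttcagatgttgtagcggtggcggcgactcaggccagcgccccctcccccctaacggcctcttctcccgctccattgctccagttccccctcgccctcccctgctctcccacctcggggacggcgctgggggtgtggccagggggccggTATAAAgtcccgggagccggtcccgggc
Igfbp3: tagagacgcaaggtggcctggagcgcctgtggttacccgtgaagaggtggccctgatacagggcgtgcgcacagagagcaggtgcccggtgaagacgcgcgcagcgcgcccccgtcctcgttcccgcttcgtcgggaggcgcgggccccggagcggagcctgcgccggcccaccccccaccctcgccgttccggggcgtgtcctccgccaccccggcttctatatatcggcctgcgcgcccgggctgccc

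The entries were searched on both strands for 4 short motifs, none of which contains another. The TATA box, searched as TATAAA, was found at Igfbp4, at position -28 from the start. These letters were in no other entry of a member, while 13.6% of all 32851 promoter entries held them. Other forms of the box, such as the stretch tatatat in the sequence of Igfbp3, were not searched. A core recognised by FoxO factors, TGTTTAC, occurred in none of the 10 entries of the 9 members, against 3.65% of all entries, which says only that these letters are not in these windows. GC boxes, searched as GGGCGG and present in 35.7% of all entries, were found at Igfbp7 (4), at the upstream start of Igfbp2 (3), at Igf1r and Irs1 (2 each) and at Irs2 (1). The Igfbp3, Igfbp4 and Igfbp5 windows of 300 bases held 37, 27 and 10 CG dinucleotides, where the median over all entries was 7. The last motif, CCAAT, in 37.4% of all entries, was found at Igf1 and Irs2.

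By position (GENCODE M21, GRCm38) all 10 are protein-coding genes, and Igfbp2 and Igfbp5 are neighbours. Igfbp2 lies on chromosome 1 from 72824503 to 72852474 on the plus strand, and Igfbp5 from 72857932 to 72874884 on the minus strand, with 5457 bases between their 3′ ends. Igfbp3 lies on chromosome 11 from 7206086 to 7213923, with its 3′ end 3539 bases from that of Igfbp1, and Igfbp4 lies on the same chromosome from 99041244 to 99054392. Igfbp7 is on chromosome 5 from 77349240 to 77408041, where Polr2b and an antisense RNA gene overlap it on the other strand. Igf1 (chromosome 10, 87858265 to 87937042), Insr (chromosome 8, 3122061 to 3279617), Irs1 (chromosome 1, 82233101 to 82291416) and Irs2 (chromosome 8, 10984681 to 11008458) also overlap an annotated gene on the other strand, and as the strand setting of the counting is not given, reads of such overlaps cannot be told apart. Igf1r lies on chromosome 7 from 67952827 to 68233668.

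The binding proteins Igfbp5 and Igfbp4 were the most abundant of the 10 transcripts in every library. Over the 6 libraries Igfbp5 averaged 270 FPKM and Igfbp4 149 FPKM, above 97.9% and 96.2% of the tested genes. Igfbp2 followed at 36.1 FPKM, and the ranges of these 3 genes did not meet each other or that of Igf1. Igf1 at 19.5, Igfbp3 at 16.6 and Igfbp7 at 15.7 FPKM overlapped as neighbours in the order, and Igfbp3 exceeded Igfbp7 in 3 of the 6 libraries. Igf1r at 10.2 FPKM exceeded Insr at 8.97 FPKM in 6 of 6 libraries, although their ranges overlapped. The docking protein genes came last, with Irs1 at 4.06 and Irs2 at 3.30 FPKM. Of the 10 members, the ligand, receptor and adaptor transcripts thus lay within 2.56 and 21.8 FPKM, below the lowest Igfbp4 library at 113 FPKM. This does not hold for such genes outside the 10, as Igf2, Igf2r and Grb10, described below, lay above 113 FPKM in every library.

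**Figure D1:**
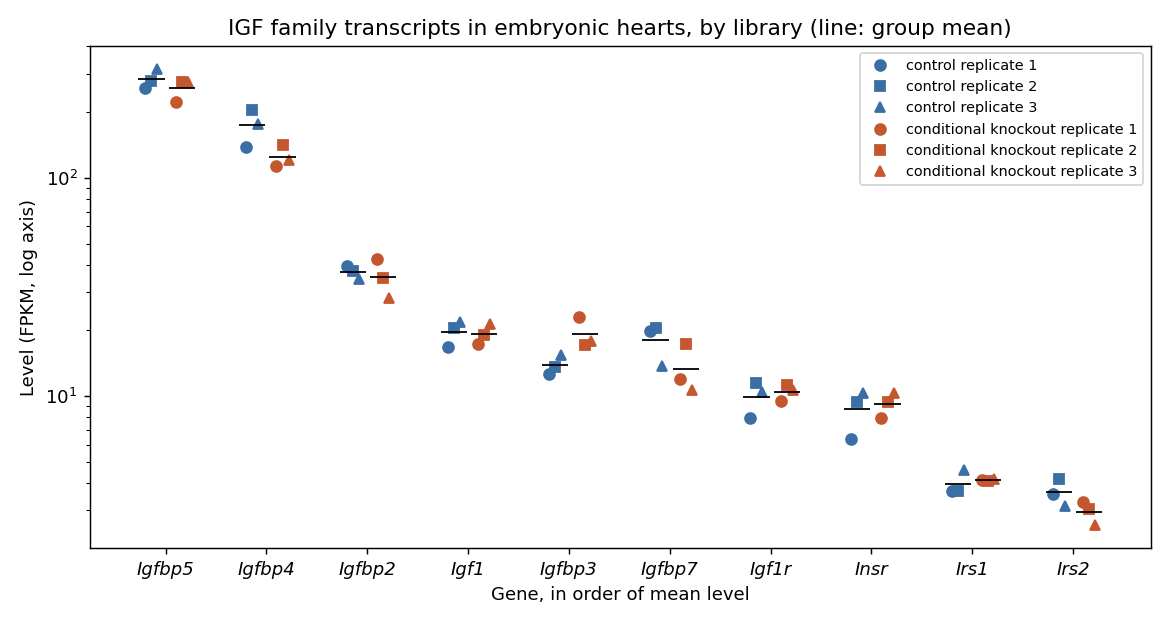
FPKM of each of the 10 genes on a log axis, with 1 point per library, controls in blue and conditional knockouts in orange, and a line at each group mean. Igfbp3 is the member whose groups do not overlap (controls up to 15.4, conditional knockouts from 17.1 FPKM), and the groups of the other 9 overlap.

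None of the 10 members passed the test of the difference between genotypes over all genes. All 10 reached a mean of 1 FPKM and were tested; limma's adjusted p ranged from 0.634 to 0.983, where 0.177% of the 12988 genes tested were called in either direction, 0.123% lower and 0.0539% higher. By unadjusted limma p-values below 0.05, Igfbp3 lay higher and Igfbp4 lower, at ranks 273 and 453 of the 12988 genes by p, which is 2 of 10 members against 6.68% of all genes tested. The groups did not overlap in 1 of 10 members, Igfbp3, against 13.4% of all genes tested, 8.17% with the conditional knockouts lower and 5.23% with them higher. The log2 fold change, conditional knockout minus control of log2(FPKM + 1), was below 0 in 6 members and above 0 in 4, with a median of -0.062, where the median of all genes tested was -0.013. This scale understates the changes of genes with low levels: with a pseudocount of 0.1 in place of 1, Irs2 moved from -0.22 to -0.28.

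**Figure D2:**
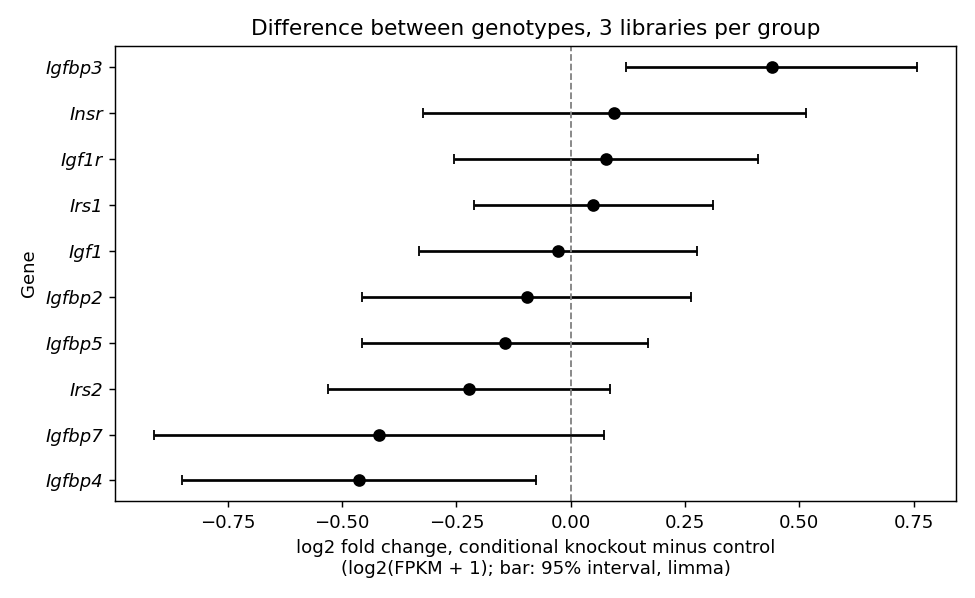
log2 fold change (x axis, conditional knockout minus control of log2(FPKM + 1)) of each member with its 95% interval from limma. The intervals of Igfbp3 (0.12 to 0.76) and Igfbp4 (-0.85 to -0.076) do not reach 0 before adjustment over all genes, and those of the other 8 members span it.

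Among the ligands, Igf1 stood at 16.8, 20.5 and 21.8 FPKM in control replicates 1, 2 and 3 and at 17.3, 19.1 and 21.3 FPKM in conditional knockout replicates 1, 2 and 3. Replicate 1 was lowest and replicate 3 highest in both genotypes, and the groups covered nearly the same range. The log2 fold change was -0.028 ± 0.13 (SE), with a 95% interval from -0.33 to 0.28 (limma adjusted p = 0.983). Igf2, the ligand prominent in the embryo and expressed from the paternal allele, was far more abundant. Its level was 2165, 2279 and 1994 FPKM in controls against 1853, 1876 and 1636 FPKM in conditional knockouts. Every conditional knockout library lay below every control, with a log2 fold change of -0.26 ± 0.12 (SE, limma adjusted p = 0.772), which did not pass. With quantile normalization the log2 fold change of Igf2 was -0.64 (limma adjusted p = 0.0478). That method sets values by rank, and Hbb-y and Hba-x ranked above Igf2 only in the conditional knockouts. Their part in this value was not tested. With the mean log2 level of the Y-linked genes as a covariate (the Y-linked covariate) the log2 fold change of Igf2 was -0.14. Its 15 alternatives other than quantile normalization did not pass. Igf2 exceeded Igf1 by 91.4 to 129 times in controls and by 76.7 to 107 times in conditional knockouts. The ratio of Igf1 to Igf2 was 0.00922 ± 0.00161 in controls and 0.0109 ± 0.00193 in conditional knockouts (SD, n = 3 each; exact permutation test, two-sided, p = 0.4, adjusted p = 0.675 over 9 shares and ratios).

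The receptor transcripts showed no difference beyond the spread between libraries. Igf1r, which encodes the signalling receptor of both IGFs, stood at 7.97, 11.5 and 10.5 FPKM in controls against 9.47, 11.3 and 10.7 FPKM in conditional knockouts. Control replicate 1 was lowest, and the conditional knockouts fell inside the control range. The log2 fold change was 0.078 ± 0.14 (SE), with a 95% interval from -0.25 to 0.41 (limma adjusted p = 0.933). Insr, the insulin receptor gene, stood at 6.36, 9.37 and 10.4 FPKM in controls against 7.94, 9.45 and 10.3 FPKM in conditional knockouts. As with Igf1r the lowest library was control replicate 1, and the log2 fold change was 0.096 ± 0.18 (SE), with a 95% interval from -0.32 to 0.51 (limma adjusted p = 0.935). The ratio of Insr to Igf1r within a library was 0.799, 0.817 and 0.992 in controls and 0.838, 0.836 and 0.968 in conditional knockouts, highest in replicate 3 of both genotypes (exact permutation test, two-sided, p = 0.8). Igf2r, the receptor that carries IGF2 to the lysosome without growth signalling, was at 243 ± 35.0 FPKM in controls against 217 ± 21.1 FPKM in conditional knockouts (SD, n = 3 each). Its libraries overlapped, and it stood at 0.946, 0.834 and 0.917 of the control with the same number.

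The fold changes of the adaptor genes had opposite signs, and neither passed. Irs1 stood at 3.67, 3.68 and 4.59 FPKM in controls against 4.12, 4.10 and 4.19 FPKM in conditional knockouts. The conditional knockouts lay close together inside the control range, with a log2 fold change of 0.050 ± 0.11 (SE, limma adjusted p = 0.949). Irs2, a gene known to be transcribed by FoxO factors when insulin signalling is low, stood at 3.59, 4.16 and 3.14 FPKM in controls against 3.26, 3.06 and 2.56 FPKM in conditional knockouts. It was lower than the control with the same number in 3 of 3 pairs, although the labels name no pairing. How many of all genes were lower in this way was not counted. Control replicate 3 lay below conditional knockout replicate 1, and the log2 fold change of -0.22 ± 0.13 (SE, limma adjusted p = 0.807) did not pass. It was -0.14 without control replicate 2, -0.15 without conditional knockout replicate 3, and -0.033 with the Y-linked covariate. Irs2 lay between 0.612 and 0.793 of Irs1 in conditional knockouts and between 0.685 and 1.13 of it in controls, a ratio chosen after its values were seen.

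Igfbp3, whose product carries most IGF in the blood together with an acid-labile subunit, had the lowest p-value of the members. It stood at 12.7, 13.6 and 15.4 FPKM in control replicates 1, 2 and 3 and at 23.0, 17.1 and 17.8 FPKM in conditional knockout replicates 1, 2 and 3. All 3 conditional knockouts lay above all 3 controls, with conditional knockout replicate 1 well above the other libraries. The mean was 13.9 ± 1.39 FPKM in controls against 19.3 ± 3.20 FPKM in conditional knockouts (SD, n = 3 each), a difference of 0.44 ± 0.14 in log2 units (SE, limma adjusted p = 0.634). Within replicates 2 and 3 alone it was 0.25, and without conditional knockout replicate 1 it was 0.31. The markers of cushion mesenchyme did not move together in that library. Of the 5 markers all 5 had a higher mean in conditional knockouts, where 6072 of the 12988 genes tested had a fold change above 0. Of the 5, 1, Twist1, was higher without overlap, against 5.23% of all genes tested. The sum of the 5 markers was 118, 203 and 232 FPKM in controls against 156, 226 and 214 FPKM in conditional knockouts. Conditional knockout replicate 1 was thus the lowest of its genotype. Postn, the most abundant marker, stood at 70.5 FPKM there, at 60.2 FPKM in control replicate 1 and at 138 to 161 FPKM in the other libraries. Conditional knockout replicate 1 held the highest level of Prrx1 (10.8 FPKM, others 4.27 to 7.99), Sox9 (17.0, others 10.7 to 14.0) and Pdgfra (24.1, others 12.3 to 20.5), genes named here after their values were seen. Their part in the difference of Igfbp3 was not tested.

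Igfbp4, which encodes a binding protein that is cleaved by the protease PAPP-A, had the lowest fold change of the members. It stood at 139, 205 and 177 FPKM in controls against 113, 141 and 120 FPKM in conditional knockouts. It was lower in 3 of 3 pairs of the same replicate number, at 0.811, 0.687 and 0.680 of the control, but control replicate 1 lay below conditional knockout replicate 2. The mean was 173.5 ± 33.1 FPKM in controls against 125 ± 14.5 FPKM in conditional knockouts (SD, n = 3 each), a difference of -0.46 ± 0.17 in log2 units (SE, limma adjusted p = 0.722). With the replicate number as a block its standard error was 0.094 and its adjusted p 0.27. Igfbp7, whose product is laid down around vessels and binds IGF weakly, stood at 19.95, 20.5 and 13.7 FPKM in controls against 11.96, 17.3 and 10.7 FPKM in conditional knockouts. It too was lower in 3 of 3 pairs with overlapping groups, at 0.599, 0.843 and 0.781 of the control, with a log2 fold change of -0.42 ± 0.21 (SE, limma adjusted p = 0.776). These pairs rest on replicate numbers alone, and Irs2, Igfbp5 and Igf2r were also lower in 3 of 3. With the Y-linked covariate the log2 fold change of Igfbp7 was -0.12.

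Most endothelial markers were lower in the conditional knockouts, the group in which the means of Igfbp4 and Igfbp7 were also lower. Of 8 endothelial and endocardial markers, 7 were lower in every conditional knockout library than in every control, against 8.17% of all genes tested. The other marker, Emcn, did not have a lower mean in the conditional knockouts. Of the 8 markers 1, the natriuretic peptide receptor gene Npr3, passed the test. The sum of the 8 markers was 276 to 304 FPKM in controls against 207 to 233 FPKM in conditional knockouts, and none was at 0 in any library. Lower means were not confined to endothelial markers. The sum of 4 smooth muscle markers was 966 to 1474 FPKM in controls against 791 to 1049 FPKM in conditional knockouts. Of these 4, 3 had a lower mean in conditional knockouts, Tagln and Cnn1 without overlap. All 5 cardiomyocyte markers had a lower mean there, each with overlapping groups. Their sum was 3300 to 4653 FPKM in controls against 2415 to 4130 FPKM in conditional knockouts. Over all genes, 6916 of the 12988 tested had a fold change below 0. The 5 epicardial markers summed to 144 to 160 and 149 to 157 FPKM. In RNA of whole hearts, fewer cells of a type and less RNA per cell cannot be told apart, and the part of these markers in the differences of Igfbp4 and Igfbp7 was not tested.

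**Figure D3:**
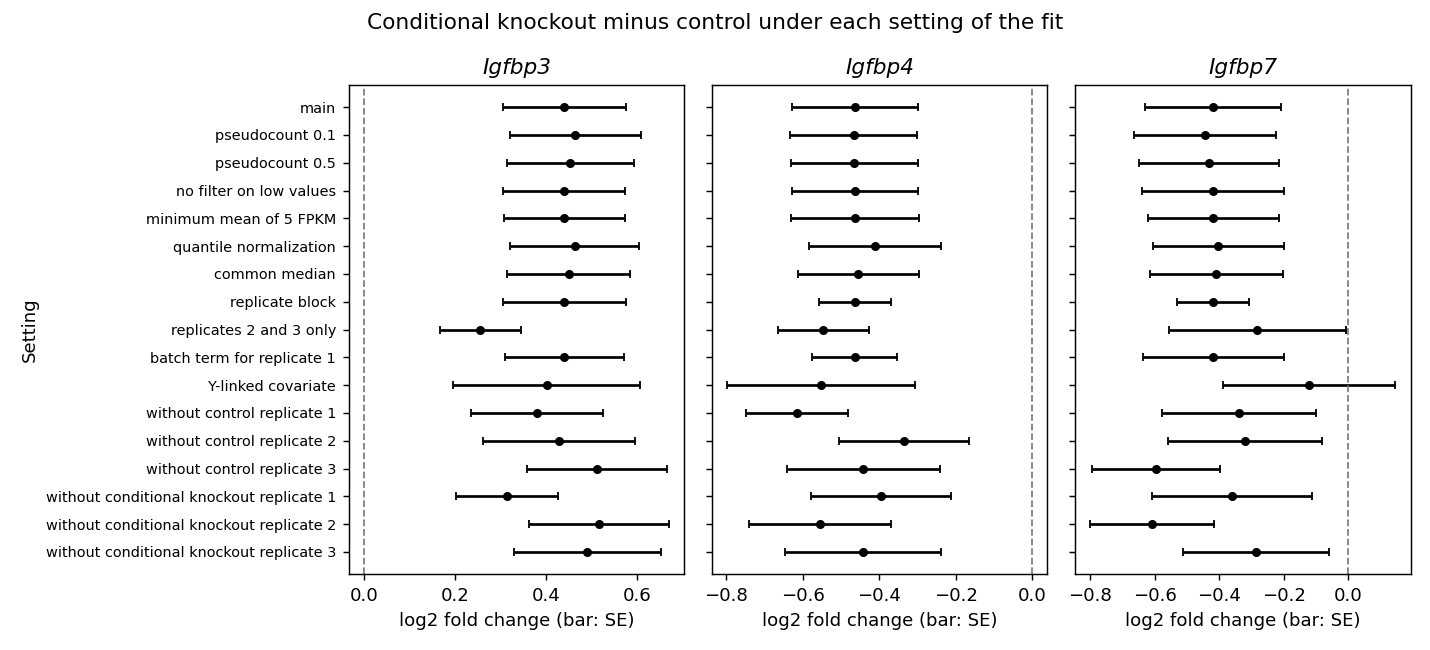
log2 fold change (x axis) with its SE for Igfbp3, Igfbp4 and Igfbp7, the 3 members with the lowest p-values, as reported (top line) and under each of 16 alternatives. Igfbp3 lies above 0 (0.25 to 0.52) and Igfbp4 (-0.61 to -0.34) and Igfbp7 (-0.61 to -0.12) below 0 in every setting, and none passes the test in any. The changes of the filter, the replicate block and the batch term cannot move a fold change, only its SE.

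Igfbp5 and Igfbp2 differed less between genotypes. Igfbp5, whose product binds extracellular matrix, stood at 258, 276 and 315 FPKM in controls against 223, 274 and 273 FPKM in conditional knockouts. It stood at 0.863, 0.992 and 0.867 of the control with the same number, with a log2 fold change of -0.14 ± 0.13 (SE, limma adjusted p = 0.842). This was -0.045 without conditional knockout replicate 1, -0.064 without control replicate 3 and -0.36 with the Y-linked covariate. Its neighbour Igfbp2, whose product can also bind integrins, stood at 39.5, 37.5 and 34.5 FPKM in controls against 42.4, 34.8 and 28.1 FPKM in conditional knockouts. Replicate 1 was highest and replicate 3 lowest in both genotypes, with a log2 fold change of -0.096 ± 0.15 (SE, limma adjusted p = 0.917). Among the controls Igfbp5 had the opposite order, lowest in replicate 1 and highest in replicate 3.

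As shares of the summed transcripts of Igfbp1 to Igfbp7, which do not depend on the library total, Igfbp4 lay lower and Igfbp3 higher in the 3 conditional knockouts than in the 3 controls. The sum was 526 ± 48.7 FPKM in controls against 449 ± 35.6 FPKM in conditional knockouts (SD, n = 3 each). Igfbp4 made up 29.5%, 37.025% and 31.8% of it in controls and 27.3%, 29.0% and 26.7% in conditional knockouts, with no overlap between the groups. Igfbp3 made up 2.70%, 2.46% and 2.77% in controls and 5.56%, 3.54% and 3.96% in conditional knockouts, again with no overlap. For each of these shares the exact two-sided permutation test gave p = 0.1, the smallest that 3 against 3 libraries can give, and the adjusted p over 9 shares and ratios was 0.45. The shares of Igfbp5, at 53.9 ± 3.51% and 57.1 ± 3.40%, of Igfbp2, at 7.13 ± 1.14% and 7.90 ± 2.10%, and of Igfbp7, at 3.47 ± 0.913% and 2.95 ± 0.598% (SD, n = 3 each), overlapped. Igfbp1 and Igfbp6 stayed under 0.0824% of the sum in every library.

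**Figure D4:**
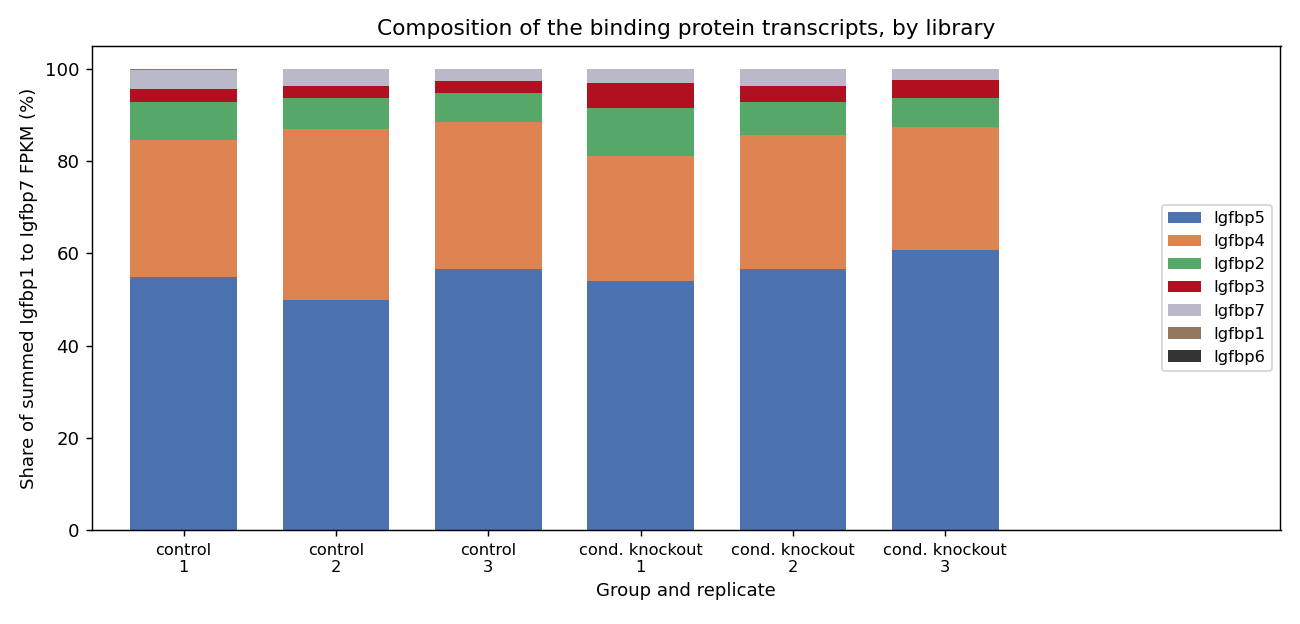
Stacked bars of the share (%) of each binding protein gene in the summed FPKM of Igfbp1 to Igfbp7, 1 bar per library. Igfbp5 and Igfbp4 together make up 81.2% to 88.5% of every bar, and Igfbp1 and Igfbp6 are too small to see.

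Genes whose pattern over the 6 libraries was most like that of a member were sought for Igfbp3, Igfbp4 and Igfbp7, as the mean absolute difference of log2 values centred over the libraries. For Igfbp3, which spanned 0.81 on the log2 scale, they were Pitpnc1 (0.035), G2e3 (0.045) and the neuropilin gene Nrp2 (0.047). For Igfbp4, which spanned 0.86, they were the fibronectin gene Fn1 (0.029), Cbfa2t3 (0.045) and Myo7a (0.045). For Igfbp7, which spanned 0.88, they were Kcnab2 (0.072), Dap (0.076) and Bst2 (0.077). Fn1 stood at 230 ± 36.6 FPKM in controls against 159.98 ± 16.2 FPKM in conditional knockouts (SD, n = 3 each; limma adjusted p = 0.559), so that it, like Igfbp4, did not pass.

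The wider pathway was read from 53 other genes of IGF and insulin signalling, of which 44 were tested and none passed, where 0.177% of all genes tested were called. Of the 44, 27 lay below 0 and 17 above 0, with a median log2 fold change of -0.043, where 6916 of the 12988 genes tested lay below 0. Groups did not overlap in 6 of the 44, 4 lower and 2 higher, against 13.4% of all genes tested. By unadjusted limma p-values 3 of the 44 genes lay below 0.05, a share near the 6.68% of all genes tested. Foxo1, a transcription factor gene restrained by this pathway, stood at 11.2, 9.89 and 9.64 FPKM in controls against 8.22, 7.31 and 7.92 FPKM in conditional knockouts (fold change in log2 units -0.35 ± 0.098 SE, limma adjusted p = 0.552). Stc2, which encodes an inhibitor of PAPP-A, stood at 1.21, 2.11 and 2.26 FPKM in controls against 2.88, 2.68 and 3.61 FPKM in conditional knockouts, with a log2 fold change of 0.52 ± 0.18 (SE, limma adjusted p = 0.716), and its groups did not overlap. Without control replicate 1 this was 0.34, with the Y-linked covariate 0.30, and with a pseudocount of 0.1 it was 0.72. Pik3r3, a regulatory subunit gene of PI3 kinase, had a log2 fold change of -0.25 ± 0.096 (SE, limma adjusted p = 0.742). Shc1, an adaptor gene that leads to Ras, was at -0.23 ± 0.12 (SE).

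The most abundant genes of the roles other than ligands and receptors had overlapping groups. Grb10, an adaptor that dampens signalling of both receptors, stood at 390 ± 3.18 FPKM in controls against 385.5 ± 15.8 FPKM in conditional knockouts (SD, n = 3 each). The kinase gene Akt1 stood at 138 ± 12.01 and 128 ± 6.61 FPKM, Eif4ebp1, a translation repressor gene under mTOR, at 113 ± 10.7 and 97.9 ± 13.2 FPKM, and the kinase gene Gsk3a at 34.6 ± 1.02 and 32.4 ± 1.56 FPKM (SD, n = 3 each). The RNA-binding protein gene Igf2bp2 stood at 68.4 ± 7.68 and 68.5 ± 2.69 FPKM, Ide, the insulin-degrading enzyme gene, at 23.7 ± 1.86 and 24.3 ± 2.05 FPKM, Ghr, the growth hormone receptor gene, at 23.0 ± 4.12 and 26.2 ± 1.67 FPKM, and Igfbpl1 at 17.6 ± 4.32 and 16.8 ± 1.63 FPKM. All 6 tested adaptor genes outside the 10 members lay below 0, between -0.23 and -0.018, while Irs1 lay above 0, and the PI3 kinase and Akt genes were split 5 to 5. Of the 9 genes below the filter, Ins1 and Ins2 are listed at 0 in every library. Igfbp6 stood at 0.2704, 0.358 and 0.190 FPKM in controls against 0.169, 0.0755 and 0.123 FPKM in conditional knockouts, a low level at which no test was made.

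**Figure D5:**
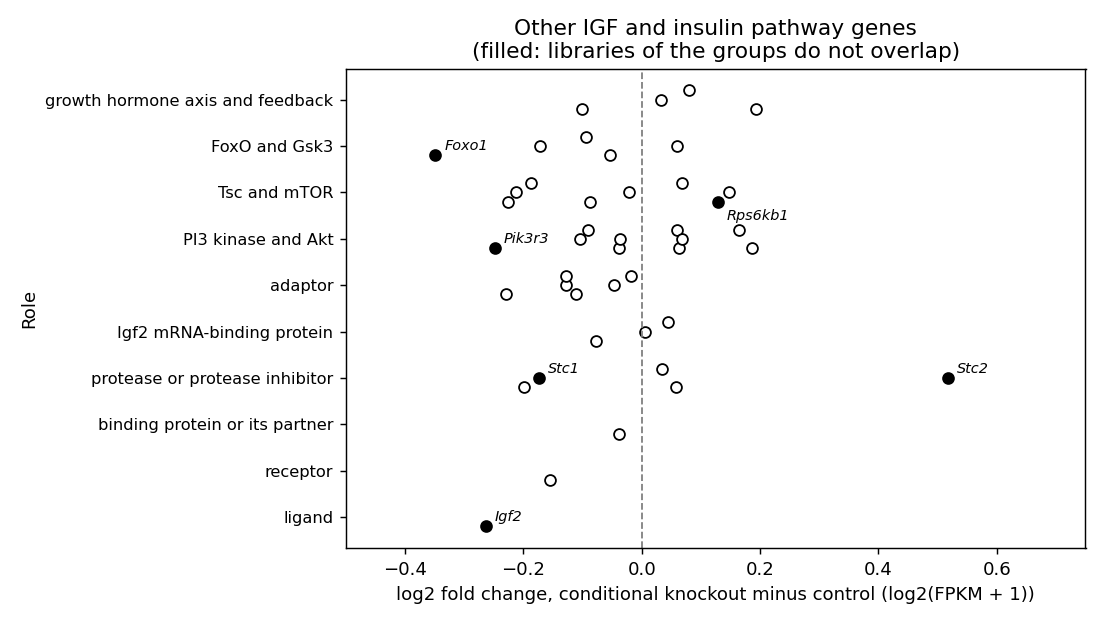
log2 fold change (x axis, conditional knockout minus control of log2(FPKM + 1)) of the 44 tested pathway genes outside the 10 members, by role. Filled points are the 6 genes whose groups do not overlap, with Stc2 farthest right at 0.52 and Foxo1 farthest left at -0.35.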

How the data were processed

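The deposited table gives FPKM values computed by the authors, 1 column per library. Per the submitters' processing notes the tools were Cuffdiff, HTSeq, Cufflinks (2.2.1) and TopHat2 (2.0.9), listed without roles, and the build was mm10. Not given in the sources used here are the annotation release, the strand setting and how reads matching several genes were counted. The table holds no read counts.

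A pseudocount of 1 was added before log2 transformation. The 12988 genes averaging 1 FPKM or more over the libraries were tested with limma (version 3.58.1, R 4.3.3; intensity trend, no block) and Benjamini-Hochberg adjustment over all of them, at a threshold of 0.05. The script was tested on simulated data. Shares and ratios were compared with exact permutation tests over libraries (scipy 1.17.1). The members and gene lists were chosen with earlier results of these data known. The text names all 10 members, Tek, and of the pathway list Igf2, Igf2r, Igfbp1, Igfbp6, any gene past the threshold, the gene with the highest mean in each role and the 5 largest changes. Planned comparisons of protein sequences were not made. Alternatives covered the pseudocount, the filter, normalization, batch, sex, replicate block and each library left out. The batch term set the replicate 1 libraries apart from the others, and sex stands for the Y-linked covariate. The sample labels used here name neither a batch nor a sex. Macrophage, liver, erythroid and neural marker lists are given in the closing observations.

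Deviations from the group mean in same-numbered libraries had correlations of 0.267, 0.109 and 0.439 for replicates 1, 2 and 3 (12805 genes without a 0). Those of differently numbered libraries ran from -0.391 to 0.0953, so replicate 2 hardly stood out. The numbers were treated as pairs in the block, although the labels name no pairing. The share of all genes lower in 3 of 3 pairs was not counted.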

Additional observations from a re-analysis of the deposited data

How the results depend on the processing

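No member passed the limma test in any of 16 alternatives, and 148 of 158 recomputed values kept their direction. Part of that count was fixed in advance. The changes of the filter, the replicate block and the batch term cannot move a fold change, only its SE and p-value. Igfbp3, for example, stayed at 0.44 under each of them. Under the replicate block no call of a member or other pathway gene changed, and over all genes tested 11 were lower and 6 higher. The direction reversed for members with values near 0. With the Y-linked covariate the log2 fold changes were -0.041 for Igf1r, -0.21 for Insr, -0.11 for Irs1 and 0.11 for Igfbp2, and 0.12 for Igfbpl1, -0.080 for Igf2bp2, 0.032 for Akt1 and -0.029 for Ghr. Within replicates 2 and 3 they were 0.21 for Igfbpl1, -0.058 for Igf2bp2 and 0.018 for Grb10, and with quantile normalization Grb10 was at 0.012. Without any 1 library the ranges that crossed 0 were -0.13 to 0.047 for Igf1, -0.061 to 0.18 for Igf1r, -0.091 to 0.22 for Insr, -0.24 to 0.049 for Igfbp2, -0.16 to 0.14 for Igfbpl1, -0.013 to 0.10 for Ide, -0.088 to 0.065 for Igf2bp2 and -0.044 to 0.014 for Grb10. The difference in share (percentage points, alternatives chosen after seeing the data) ranged from -0.026 to 0.017 for Igfbp1 and from -0.41 to 1.60 for Igfbp2 without any 1 library, and was 0.027 for Igfbp1 within replicates 2 and 3. The difference in the ratio of Insr to Igf1r ranged from -0.032 to 0.073 and was -0.0023 within replicates 2 and 3. The cause of these reversals was not tested. Of the other pathway genes 1, Igf2, was called lower with quantile normalization. Over all genes tested, 16 lower and 7 higher genes became 7 lower with no filter, 8 lower within replicates 2 and 3 and 1 lower with the Y-linked covariate. Without control replicates 1, 2 and 3 the lower genes numbered 9, 4 and 6, and without conditional knockout replicates 1, 2 and 3 they numbered 6, 6 and 4; the higher genes ranged from 6 to 11, with 11 without conditional knockout replicate 2. A minimum mean of 5 FPKM leaves out Irs1, Irs2 and Stc2, which gave no value there. The unknown depth limits what can be said of genes below 1 FPKM.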

Other observations

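Some pathway genes below the filter stood out in a single library. In conditional knockout replicate 1 Irs4, which encodes another docking protein, stood at 0.918 FPKM, and it was at no more than 0.0265 FPKM in the other 5 libraries. Sh2b2, another adaptor gene, stood at 1.49 FPKM there and between 0.524 and 0.654 FPKM elsewhere, and Insrr, a receptor gene related to Insr, at 0.188 FPKM there and at no more than 0.0492 FPKM elsewhere. These genes were chosen after their values were seen.

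Igfbp1, the neighbour of Igfbp3 and a gene strongly expressed in liver, stood at 0.387, 0.126 and 0.107 FPKM in controls against 0.0782, 0.399 and 0.0581 FPKM in conditional knockouts. The 7 liver markers summed to 80.5, 21.3 and 25.6 FPKM in controls and to 4.598, 221 and 1.11 FPKM in conditional knockouts. Conditional knockout replicate 2 and control replicate 1 were thus highest in both, and the part of liver RNA in the Igfbp1 values was not tested. The fetal liver also expresses Igf1, Igf2 and Igfbp2. In conditional knockout replicate 2, Igf2 (1876 FPKM) was the highest of its genotype but below every control. Igf1 (19.1 FPKM) and Igfbp2 (34.8 FPKM) were in the middle of their genotype there. The part of liver RNA in these values was not tested either.

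The 5 macrophage markers summed to 6.92 to 8.88 FPKM in controls against 10.4 to 11.1 FPKM in conditional knockouts, with no overlap and with no marker at 0, while Igf1, a gene that macrophages also express, overlapped as described. The 4 neuron and neural crest markers summed to 7.30 to 8.75 and 6.10 to 8.90 FPKM. The 5 erythroid markers summed to 239 to 363 FPKM in controls against 28890 to 43020 FPKM in conditional knockouts, a gap made by Hbb-y and Hba-x, which are listed at 0 in the controls.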
